A study of Homo sapiens with 16 samples.

Results

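The dual-specificity phosphatases DUSP1, DUSP2, DUSP4, DUSP5, DUSP6, DUSP8, DUSP10 and DUSP14 were followed in Caco-2 cells that had been exposed to pepsin- and trypsin-digested gliadin, to the enzymes alone or to a gliadin peptide. The members are the 8 genes of these names on the array, taken with every probe that carries one of the names. They have 12 probes among 40982 probes tested: 2 for DUSP2, 3 for DUSP8, 2 for DUSP10 and 1 for each of the other genes. The genes were picked from their values over the 4 conditions on these same arrays. Their differences between conditions are therefore given as a description, with no p-value printed. Members past a threshold (called below) are counted beside the share of all probes past it, and nothing is concluded from these counts.

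The study had 16 samples of Caco-2, a human colon carcinoma line used here in its undifferentiated state, each hybridised to a one-colour whole genome array. MED-CTL cells stayed in culture medium with a low level of fetal calf serum for 6 h (n = 4). The p31-43 cells received the synthetic gliadin peptide of that name at 150 µg/ml in the same medium for 6 h (n = 4), PT cells the blank preparation of pepsin and trypsin without substrate (n = 4), and PT-G cells the preparation of gliadin digested by both enzymes (n = 4). The enzymes of PT and PT-G had been inactivated by heat according to the methods, and all cultures, controls included, were harvested with trypsin-EDTA. The 4 cultures of a group came from 4 experiments that lay 1 or 2 passages apart. All groups are a single transformed line, so they stand for enterocytes only as far as that line does.

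MAP kinases are switched on by phosphorylation of a threonine and a tyrosine in their activation loop, and dual-specificity phosphatases remove both phosphates. ERK responds chiefly to growth factor and receptor signals through RAS and RAF, whereas JNK and p38 respond chiefly to stress and cytokines. Many of the phosphatase genes are themselves transcribed in response to MAP kinase activity, which makes their mRNA part of a negative feedback loop, and in the gut epithelium ERK activity accompanies proliferation and migration. DUSP5, which is nuclear, and DUSP6, which is cytoplasmic, act on ERK. DUSP8 and DUSP10 prefer JNK and p38. DUSP1, DUSP2 and DUSP4 are inducible nuclear enzymes that act on ERK and on JNK or p38, and DUSP14 is a small atypical phosphatase without the kinase-binding domain of the others.

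The arrays fell into 4 runs, meaning arrays whose deposited files carry the same date, with 1 array of each group in each run, and lay on 5 slides. What the date marks is not stated. The PT array of run 3 and the p31-43 array of run 4 were on a slide of their own that held no MED-CTL array. That slide was scanned on a day of its own. Between 63.8% and 78.3% of the spots of an array were well above background, a call made by the scanner software. All 7 intestinal epithelium markers examined (CDX2, VIL1, CDH1, KRT8, KRT18, KRT20 and LGALS4) were well above background on all 16 arrays. Of 5 markers of other cells, the leukocyte gene PTPRC was not well above background on any array, whereas PECAM1, COL1A1, COL3A1 and CD3E were on all 16. KRT20 was called higher under PT-G by 0.63 and under PT by 0.49 (SE 0.12 for both) on the log2 scale. COL3A1 was called lower under PT (log2 fold change -0.53, SE 0.18), with -0.46 under PT-G, and the part of either in the results on the phosphatases was not tested.

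The sequence upstream of a gene is where factors that act below the MAP kinases can bind, so the windows of DUSP1, DUSP6, DUSP8 and DUSP10, at least 1 gene of each class with a known substrate preference, are shown for the reader to compare. Each line gives the 250 bases before the annotated start, read 5′ to 3′ along the gene, from RefSeq sequence of build GRCh38.p14. Windows of 6 of the 8 genes were examined. DUSP1 lies at chr5:172771196-172771445, DUSP6 at chr12:89352502-89352751, DUSP8 at chr11:1572272-1572521 and DUSP10 at chr1:221742090-221742339, all on the minus strand, and all of these lie before the first exon of the annotated transcript. Capitals mark matches, on either strand, to the cyclic AMP response element TGACGTCA, the AP-1 site TGAGTCA, the ETS core CCGGAAG, the E-box CACGTG, the CCAAT box CCAAT and the TATA box TATAAA.
DUSP1: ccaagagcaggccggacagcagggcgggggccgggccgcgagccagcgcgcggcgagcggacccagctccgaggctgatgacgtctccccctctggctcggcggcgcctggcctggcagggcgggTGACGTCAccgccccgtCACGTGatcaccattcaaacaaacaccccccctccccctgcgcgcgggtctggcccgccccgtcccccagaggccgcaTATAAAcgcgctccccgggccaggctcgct
DUSP6: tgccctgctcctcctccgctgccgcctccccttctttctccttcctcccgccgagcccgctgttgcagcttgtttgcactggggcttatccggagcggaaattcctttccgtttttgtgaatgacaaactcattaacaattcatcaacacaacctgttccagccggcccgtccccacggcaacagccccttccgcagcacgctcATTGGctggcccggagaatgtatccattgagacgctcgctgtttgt
DUSP8: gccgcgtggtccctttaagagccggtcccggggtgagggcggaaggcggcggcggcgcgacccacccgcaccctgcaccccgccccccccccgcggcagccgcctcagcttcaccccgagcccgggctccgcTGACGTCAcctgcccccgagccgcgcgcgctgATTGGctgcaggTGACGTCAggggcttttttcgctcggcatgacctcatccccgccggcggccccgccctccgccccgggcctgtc
DUSP10: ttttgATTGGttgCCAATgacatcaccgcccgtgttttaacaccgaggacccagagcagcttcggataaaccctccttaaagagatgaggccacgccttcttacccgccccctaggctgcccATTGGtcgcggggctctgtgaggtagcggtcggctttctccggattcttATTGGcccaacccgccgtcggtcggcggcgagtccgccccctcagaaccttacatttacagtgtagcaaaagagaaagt

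DUSP1 and DUSP8 held the cyclic AMP response element, DUSP8 with 2 copies that begin 118 and 74 bases before the start and DUSP1 with a copy that begins 125 bases before it. This motif occurs in 1.65% of the 35116 promoter windows of the same length. DUSP1 was also the only one of the 6 windows with a TATA box (10.7% of all windows), which begins 30 bases before the start. DUSP1 and DUSP2 held an E-box (6.34% of all windows). CCAAT boxes were found upstream of DUSP6, DUSP8 and DUSP10, with 4 copies in the DUSP10 window, and 32.0% of all windows hold one. None of the 6 windows contained TGAGTCA (4.20% of all windows) or CCGGAAG (8.52%) as written. The windows of DUSP6 and DUSP10 had 57.2% and 56.4% G or C, close to the median of 58.0% over all windows, while those of DUSP1, DUSP2 and DUSP8 had between 74.0% and 76.8% and that of DUSP14, at chr17:37489641-37489890 on the plus strand, 82.8%. These matches describe letters and not bound factors.

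Both ERK-directed phosphatases were higher after PT-G and after PT than in medium, and by more than any other member. DUSP5 had levels of 10.30, 9.54, 9.76 and 9.57 in MED-CTL, given here as quantile-normalized log2 intensity per array. Its levels were 11.57, 11.79, 11.68 and 11.46 under PT-G, and 11.69, 11.41, 11.29 and 11.36 under PT. All 8 arrays of the enzyme preparations thus lay above all 4 MED-CTL arrays, by about 1 log2 unit at the closest. With p31-43 the levels were 9.65, 10.08, 9.67 and 9.29, with 1 array below the range of medium and the others inside it. DUSP5 rose by 1.83 (SE 0.18) in log2 fold change under PT-G, which is 3.56-fold, and by 1.64 (SE 0.18) under PT, which is 3.13-fold. The difference between p31-43 and medium was -0.12 (SE 0.18, 95% interval -0.50 to 0.27).

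DUSP6 lay at 12.97, 12.25, 12.41 and 12.04 in MED-CTL. Under PT-G it reached 13.91, 13.92, 14.12 and 14.10, and under PT 13.98, 13.85, 13.60 and 13.77. Here too the 2 sets of arrays did not overlap with medium, and the 4 PT-G arrays were within a narrow band. The p31-43 arrays gave 12.45, 12.88, 11.79 and 11.66, with the arrays of runs 3 and 4 below every MED-CTL array and those of runs 1 and 2 inside the range of medium. DUSP6 rose by 1.59 (SE 0.24) under PT-G, 3.02-fold, and by 1.38 (SE 0.24) under PT, 2.60-fold. The order of the group means was PT-G, PT, MED-CTL and p31-43 for both genes, and in that order PT-G overlapped with PT, and MED-CTL with p31-43. Since each array measured a whole culture, more mRNA per cell and more cells that express the gene cannot be told apart.

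**Figure D1:**
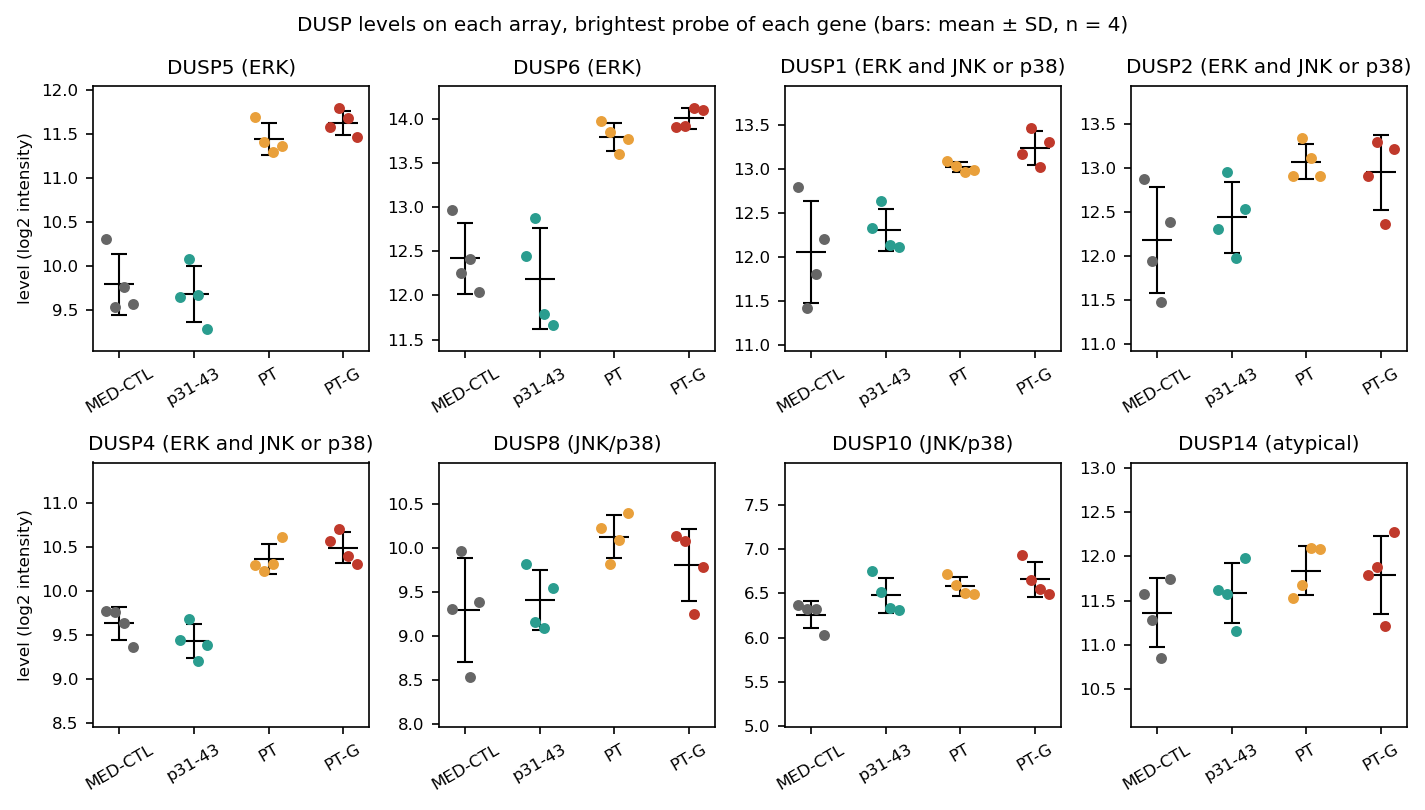
Level of each gene on each array (points, quantile-normalized log2 intensity of the brightest probe of the gene, y axis) in the 4 groups (x axis), with bars for the mean ± SD of 4 arrays. Every panel spans 3 log2 units. The PT and PT-G points of DUSP5, DUSP6, DUSP1 and DUSP4 sit above all points of MED-CTL and p31-43, and those of DUSP2, DUSP8, DUSP10 and DUSP14 overlap with them in at least 1 comparison.

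Of the phosphatases with a broader substrate range, DUSP1 and DUSP4 were above medium on every array of both enzyme preparations, and DUSP2 was above on every PT array on the brighter of its probes. DUSP1, an immediate early gene, had levels of 12.79, 11.42, 11.81 and 12.21 in MED-CTL. It had 13.17, 13.46, 13.02 and 13.30 under PT-G and 13.09, 13.03, 12.97 and 12.99 under PT. MED-CTL was the most variable group for this gene, with an SD of 0.58 against 0.06 in PT. DUSP1 rose by 1.18 (SE 0.22), 2.27-fold, under PT-G and by 0.96 (SE 0.22), 1.95-fold, under PT. The p31-43 levels were 12.33, 12.64, 12.14 and 12.11, all within the range of medium, with a difference of 0.25 (95% interval -0.23 to 0.73).

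DUSP4 varied little within groups. Its levels were 9.77, 9.76, 9.63 and 9.36 in MED-CTL, 10.57, 10.70, 10.39 and 10.30 under PT-G and 10.29, 10.23, 10.30 and 10.61 under PT. It rose by 0.86 (SE 0.13), 1.81-fold, under PT-G and by 0.73 (SE 0.13), 1.66-fold, under PT. Under p31-43 it lay at 9.44, 9.68, 9.21 and 9.39, a difference of -0.20 (95% interval -0.48 to 0.07), with 1 of the 4 arrays below the lowest MED-CTL array.

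DUSP2, best known from activated lymphocytes, was measured by 2 probes that gave similar differences. The brighter, A_23_P108842, read 12.88, 11.95, 11.48 and 12.39 in MED-CTL. The readings were 12.91, 13.34, 13.11 and 12.91 under PT and 12.91, 13.30, 12.36 and 13.22 under PT-G. All PT arrays lay above medium, the nearest by a few hundredths of a log2 unit, while the PT-G array of run 3 fell within the range of medium. The log2 fold change was 0.89 (SE 0.29) under PT and 0.77 (SE 0.29) under PT-G, and the dimmer probe A_24_P37409 gave 0.82 and 0.65 (SE 0.39 for both). On the dimmer probe the lowest PT array read 10.86 and the lowest PT-G array 10.58, under the highest MED-CTL array at 11.50, so that both groups overlapped with medium.

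DUSP8 and DUSP10, the phosphatases that prefer JNK and p38, differed less from medium than DUSP5 and DUSP6 did, and their probes did not all point the same way. The brightest DUSP8 probe, A_23_P390528, read 9.31, 9.97, 8.54 and 9.39 in MED-CTL. It read 10.14, 10.08, 9.25 and 9.78 under PT-G and 10.23, 9.82, 10.09 and 10.40 under PT. Both groups overlapped with medium, whose arrays spanned over 1 log2 unit. The log2 fold change was 0.51 (SE 0.28) under PT-G and 0.83 (SE 0.28) under PT. Probe A_24_P322867 had levels of 7.39, 7.90, 6.82 and 7.93 in MED-CTL, 8.58, 8.40, 7.95 and 8.51 under PT-G and 8.36, 8.14, 8.46 and 8.75 under PT. On this probe neither group overlapped with medium, and DUSP8 was higher by 0.85 (SE 0.23) under PT-G and by 0.92 (SE 0.23) under PT. The third probe, A_32_P98298, gave 7.67, 7.89, 7.67 and 8.50 in MED-CTL, 7.83, 7.71, 7.63 and 7.87 under PT-G and 7.83, 7.55, 7.43 and 7.83 under PT. Its log2 fold changes were -0.17 (SE 0.17) and -0.27 (SE 0.17), opposite to those of the other two, and without MED-CTL replicate 4 the PT-G value was 0.02. All 3 probes carry the same transcript name on the array, and which of them reads DUSP8 best was not tested.

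DUSP10 was near the background of the arrays. Its brighter probe, A_24_P182494, was well above background on 12 of 16 arrays, including 1 of 4 MED-CTL arrays and all 4 PT-G arrays. Its levels were 6.37, 6.32, 6.32 and 6.03 in MED-CTL, 6.94, 6.65, 6.55 and 6.49 under PT-G and 6.72, 6.60, 6.50 and 6.49 under PT. Each enzyme array was above each MED-CTL array, by small steps. The log2 fold change was 0.40 (SE 0.12) under PT-G and 0.32 (SE 0.12) under PT. Probe A_23_P51856 gave 0.24 (SE 0.10) and 0.14 (SE 0.10) and overlapped with medium in both. Under p31-43 the brighter probe read 6.75, 6.52, 6.34 and 6.31 and overlapped with every other group. Its log2 fold change against medium was 0.22 (SE 0.12), and that of A_23_P51856 was -0.04 (SE 0.10). Against p31-43, PT-G and PT were higher by 0.18 and 0.10 on the brighter probe and by 0.28 and 0.18 on A_23_P51856.

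DUSP14 was higher than in medium in each of the 4 runs under PT-G and PT, but the groups overlapped. MED-CTL arrays read 11.57, 11.28, 10.85 and 11.74, PT-G arrays 11.79, 11.88, 11.21 and 12.28, and PT arrays 11.53, 11.68, 12.09 and 12.08. The log2 fold changes were 0.43 (SE 0.24, 95% interval -0.10 to 0.95) and 0.48 (SE 0.24, 95% interval -0.04 to 1.01).

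**Figure D2:**
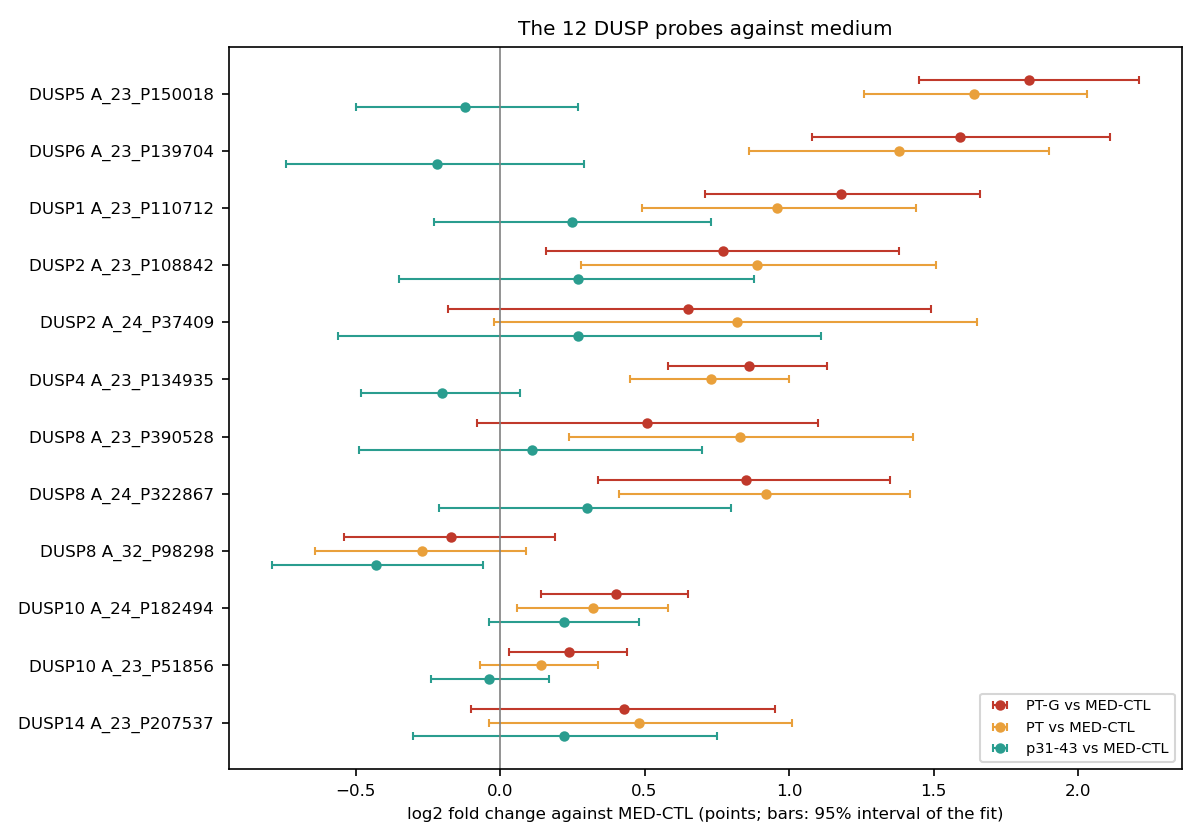
Log2 fold change against MED-CTL (x axis; points with the 95% interval of the fit as bars) of the 12 probes (y axis) under PT-G, PT and p31-43. The PT-G and PT points of a probe lie side by side, from 1.83 and 1.64 for DUSP5 to -0.17 and -0.27 for DUSP8 probe A_32_P98298, the 1 probe below 0 in both, and the p31-43 points lie between -0.43 and 0.30.

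At a nominal p under 0.01, the threshold used in the methods, 6 of 12 member probes were called under PT-G, all higher, against 3.43% of all probes tested (1.91% higher). The 6 were the probes of DUSP1, DUSP4, DUSP5 and DUSP6, A_24_P322867 of DUSP8 and A_24_P182494 of DUSP10. Under PT, 7 of 12 were called, all higher, against 3.64% of all probes (1.76% higher): those of DUSP1, DUSP4, DUSP5 and DUSP6, the brighter DUSP2 probe and the 2 brighter DUSP8 probes. After Benjamini-Hochberg adjustment over all probes, with a threshold of 0.05, 4 were called under PT-G (DUSP1, DUSP4, DUSP5 and DUSP6), where 0.93% of all probes were, and 3 under PT (DUSP4, DUSP5 and DUSP6), where 0.83% were. In 6 probes under PT-G all 4 arrays lay above all 4 MED-CTL arrays (2.02% of all probes did), and in 7 under PT (2.28%). The log2 fold change was above 0 in 11 of 12 probes in both, where it was above 0 in 47.9% of all probes under PT-G and in 46.3% under PT. All MED-CTL arrays entered both comparisons, so the 2 sets of calls are not independent. The median log2 fold change of the member probes was 0.71 under PT-G and 0.83 under PT, and that of all probes was -0.01 in both. Because the members were picked on these values, their excess over the background share is not a result.

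The calls moved with the fit. DUSP1, DUSP4, DUSP5 and DUSP6 were past the nominal threshold under PT-G and PT in all 11 alternatives and without any 1 of the 16 arrays. The genes were picked on these same values, so this supports nothing. After adjustment they were not all called: in models of just the pair of groups compared, 2 of the 4 were left under PT-G (without DUSP1 and DUSP4) and 1 of the 3 under PT (DUSP5), and DUSP4 was no longer called under PT on background-subtracted signals or with an intensity trend in the spread. DUSP1 also lost its adjusted call under PT-G without MED-CTL replicate 2 or 3 or PT-G replicate 1, 2 or 4. Under PT, DUSP6 lost it without MED-CTL replicate 2 or PT replicate 1, 2 or 4, and DUSP4 without PT replicate 4. Blocking on run, both DUSP2 probes were called under PT-G as well as PT, also after adjustment. That block took the nominal calls over all probes to 9.11% under PT-G and 10.2% under PT. In the fit without a block, the PT call of DUSP2 was lost without MED-CTL replicate 2 or 3, any of the 4 PT arrays, PT-G replicate 1, or p31-43 replicate 1 or 4, and that of DUSP8 probe A_23_P390528 without MED-CTL replicate 1, 3 or 4, PT replicate 1, 3 or 4, PT-G replicate 1, 2 or 4, or p31-43 replicate 2, 3 or 4. The PT-G call of DUSP8 probe A_24_P322867 was lost without PT-G replicate 1 and that of DUSP10 probe A_24_P182494 without MED-CTL replicate 4 or PT-G replicate 1 or 2.

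No member was called between gliadin digest and enzymes alone. Between PT-G and PT no member probe reached a nominal p under 0.01 (0 of 12, against 0.0903% of all probes) in limma. None reached a nominal p under 0.05, where 0.761% of all probes were. With shares this low, no call among 12 probes says little about them. DUSP6 was higher under PT-G by 0.21 (SE 0.24, 95% interval -0.30 to 0.73), and DUSP5 had 0.19 (95% interval -0.20 to 0.57). DUSP1 was 0.22 higher under PT-G (95% interval -0.26 to 0.69). DUSP8 was lower under PT-G by 0.32 on its brightest probe (log2 fold change -0.32, 95% interval -0.92 to 0.27). These intervals do not show equal levels, and for DUSP5 they leave room for a difference of up to 0.57 on the log2 scale. PT-G and PT arrays overlapped for all 12 probes.

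The peptide p31-43 gave no called member either. None of 12 probes reached a nominal p under 0.01 in limma, against 0.403% of all probes. With a share this low, no call among 12 probes says little about them. The DUSP8 probe A_32_P98298 was the 1 at a nominal p under 0.05, where 2.15% of all probes were. It read 7.21 to 7.72 against a MED-CTL group whose replicate 4 read 8.50. The ERK-directed genes and DUSP4 were on the low side of medium and DUSP1, DUSP2 and DUSP14 on the high side. All of these had 95% intervals that ran from below medium to above it. The probes of DUSP8 and those of DUSP10 lay on both sides. Compared directly with the p31-43 arrays, which share the medium but none of the arrays of MED-CTL, PT-G and PT each gave 4 called probes, those of DUSP1, DUSP4, DUSP5 and DUSP6, against 3.70% and 3.14% of all probes. DUSP2, DUSP8 and DUSP10 were not called in those 2 comparisons.

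DUSP5 and DUSP6, the ERK-directed members, differed from medium by more than DUSP8 and DUSP10, the JNK/p38-directed ones, in both enzyme groups. Taking each gene by its brightest probe, the median log2 fold change was 1.71 for DUSP5 and DUSP6 and 0.45 for DUSP8 and DUSP10 under PT-G, a difference of 1.26. Under PT the medians were 1.51 and 0.58, a difference of 0.94. Under p31-43 they were -0.17 and 0.16, a difference of -0.33. DUSP1, DUSP2 and DUSP4, which act on both kinds of kinase, had medians of 0.86 under PT-G and 0.89 under PT, between the other classes. Within runs, the ERK-directed median exceeded the JNK/p38-directed one in 4 of 4 runs under PT-G, by 0.70 to 1.55, and in 4 of 4 under PT, by 0.49 to 1.61. With DUSP1, DUSP2 and DUSP4 counted as ERK-directed the difference was 0.73 under PT-G and 0.39 under PT. Outside the members, the ERK-directed DUSP9 and DUSP7 had -0.18 and 0.06 under PT-G, below the JNK/p38-directed DUSP16 at 0.41, 3 genes named after their values were seen. Each class has 2 genes, which are not replicates of a class, so the difference is given without a test.

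The class difference was smaller on background-subtracted signals, and the cause was not tested. DUSP10, 1 of the 2 JNK/p38-directed genes, was well above background on 1 of 4 MED-CTL arrays, and its value of 0.40 holds that background. On background-subtracted signals, DUSP10 probe A_24_P182494 gave 1.16 for PT-G and 0.86 for PT (log2 fold change) in place of 0.40 and 0.32, and its second probe 0.66 and 0.37 in place of 0.24 and 0.14. DUSP8 probe A_24_P322867 also moved, to 1.12 and 1.26 from 0.85 and 0.92. DUSP5 went from 1.83 to 1.98 under PT-G, and DUSP6 from 1.59 to 1.61. The class difference was then 0.90 under PT-G and 0.66 under PT. These signals were also scaled to the 75th percentile of each array instead of quantile normalized, so scaling and background cannot be told apart. A normexp correction, which models the background and adds an offset, gave 0.35 and 0.26 for the brighter DUSP10 probe. Under PT-G it gave 1.83 for DUSP5, 1.60 for DUSP6 and 0.54 for the brightest DUSP8 probe, near the values without correction.

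**Figure D3:**
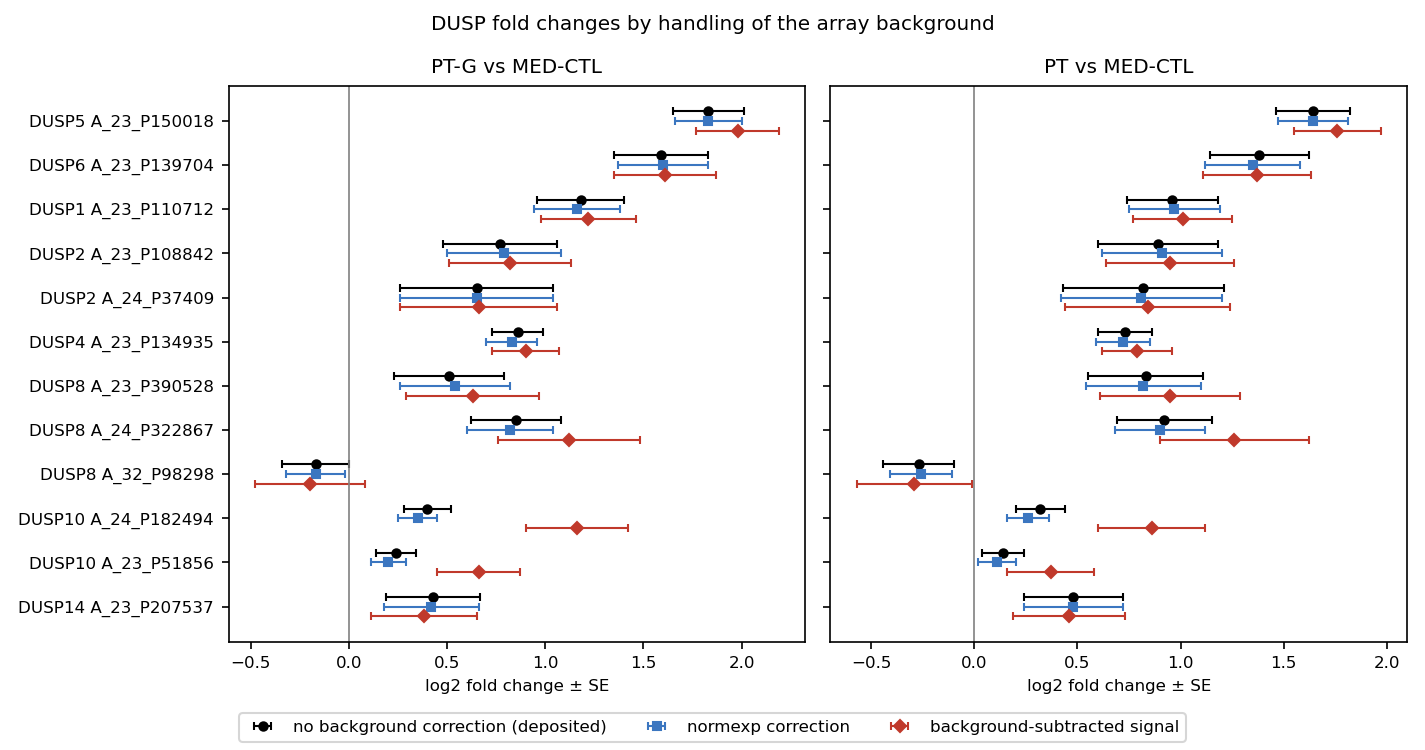
Log2 fold change ± SE (x axis) of the 12 probes (y axis) for PT-G and PT against MED-CTL, with the deposited values without background correction (circles), after normexp correction (squares) and on background-subtracted signals (diamonds). The 3 marks of a probe lie close together for DUSP5, DUSP6, DUSP1, DUSP2, DUSP4 and DUSP14, and the diamonds of both DUSP10 probes stand apart, at 1.16 against 0.40 for the brighter probe under PT-G.

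Within runs, each treated array can be set against the MED-CTL array of the same run. DUSP5 was higher by 2.03, 1.49, 1.92 and 1.89 in runs 1 to 4 under PT-G, and by 2.15, 1.11, 1.53 and 1.78 under PT. DUSP6 was higher by 1.66, 0.95, 1.71 and 2.06 under PT-G, and by 1.73, 0.88, 1.18 and 1.73 under PT. Run 2 gave the smallest difference for DUSP5, DUSP6 and DUSP1 in both groups, and its MED-CTL array had the highest level of each of these genes in medium. DUSP1 followed with 1.75, 0.67, 1.21 and 1.09 under PT-G and with 1.67, 0.24, 1.16 and 0.78 under PT. DUSP4 ran from 0.76 to 0.94 under PT-G and from 0.47 to 1.25 under PT.

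DUSP2, DUSP8 and DUSP14 shared a feature of run 3. In each of these genes the MED-CTL, p31-43 and PT-G arrays of that run, all on the same slide, had the lowest reading of their group. The PT array of the run, on another slide and scanned on another day, did not have the lowest of its own (brightest probes). Slide and scan day cannot be told apart for that array. The difference between PT and MED-CTL in run 3, taken across both slides, was 1.62 for DUSP2, 1.56 for DUSP8 and 1.24 for DUSP14, against 0.46 to 0.96, 0.26 to 1.01 and 0.11 to 0.34 in the other runs. A fit that blocked on slide put the log2 fold change under PT at 0.71 for DUSP2, 0.66 for DUSP8 and 0.25 for DUSP14, and their PT-G values stayed at 0.77, 0.51 and 0.43. For DUSP5 the slide block gave 1.72 under PT and for DUSP6 1.46. When run was blocked on instead, 9 of the 12 probes were called in each enzyme group, with the fold changes as above. That fit called 9.11% of all probes under PT-G and 10.2% under PT, against 3.43% and 3.64% without a block.

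**Figure D4:**
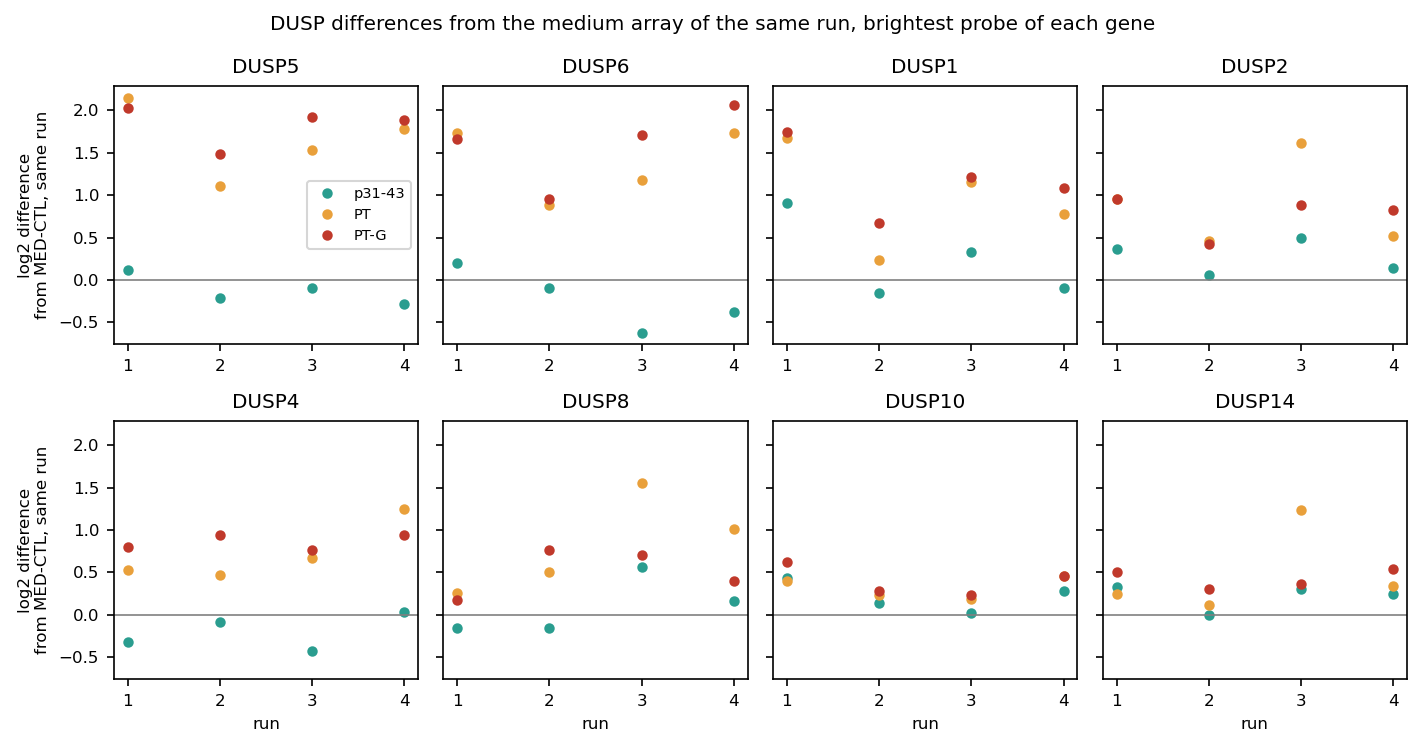
Log2 difference (y axis) between a treated array and the MED-CTL array of the same run (x axis, runs 1 to 4) for each gene by its brightest probe, with a point each for p31-43, PT and PT-G. The PT and PT-G points are above 0 in all 4 runs for all 8 genes, and the PT point of run 3 stands above the others for DUSP2, DUSP8 and DUSP14.

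Whether the response changed over the study was a comparison that the choice of genes had not used. The mean of PT-G and PT against MED-CTL was compared between the earlier runs (1 and 2) and the later runs (3 and 4). DUSP5 responded by 1.70 in the earlier and by 1.78 in the later runs, and the difference of 0.08 (SE 0.30) had an adjusted p of 1 in limma. DUSP6 responded by 1.30 and 1.67, a difference of 0.37 (SE 0.27; limma, adjusted p = 1). DUSP4 responded by 0.68 and 0.90, and DUSP1 by 1.09 and 1.06. No member probe passed the nominal threshold (0 of 12, against 0.839% of all probes), none was at a nominal p under 0.05 (2.53% of all probes were), and all 12 had an adjusted p of 1 in limma. Shares this low leave no call among 12 probes with little to say about them. With 2 runs in each period, the interval for DUSP5 still ran from -0.59 to 0.75 and that for DUSP8 from -0.46 to 1.44 on its brightest probe.

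The JNK and p38 kinases and the genes around them, from the kinases above them to the GADD45 genes, were compared at the mRNA level. None of these 18 genes was called at a nominal p under 0.01 in limma under PT-G or PT, where 4.79% and 5.05% of all named genes were called in either direction. Their log2 fold changes ran from -0.37 to 0.37 under PT-G. None of the 14 other dual-specificity phosphatase genes on the array was called in PT-G, PT or p31-43 against MED-CTL or in PT-G against PT (median log2 fold change -0.05 under PT-G, range -0.46 to 0.41). The SE of the 3 named above was 0.23 for DUSP9, 0.29 for DUSP7, which was well above background on 14 of 16 arrays, and 0.15 for DUSP16. DUSP21 of this list and MAPK10 of the JNK and p38 list were not well above background on any array. Of all probes, 0.403% were called under p31-43 and 0.0903% between PT-G and PT. With shares this low, no call among 14 or 18 genes says little about them. The same holds for the shares of 4.79% and 5.05% of named genes under PT-G and PT. The difference between the genes of these lists and the members was not tested.

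Of 12 genes known to be transcribed in response to ERK, 6 were called higher at the nominal threshold in each enzyme group. Among all named genes, 2.63% were called higher in PT-G cells and 2.36% in PT cells. The peptide p31-43 gave 0 calls in this list. Log2 fold changes of the 12 genes, called or not, ran from 0.11 to 2.89 with PT-G and from -0.01 to 2.80 with PT. The 6 called genes were the same in both enzyme groups. They were SPRY1, SPRY2 and SPRY4, which restrain receptor signalling to ERK, the AP-1 subunit FOSL1, the stress-response gene IER3 and PHLDA1. IER3 rose by 2.89 (SE 0.24) under PT-G and by 2.80 (SE 0.24) under PT, SPRY4 by 1.56 and 1.67 (SE 0.19), and FOSL1 by 1.77 and 1.73 (SE 0.35). All 6 passed the adjusted threshold in both comparisons. The list was drawn up with earlier results of these arrays known and is no independent evidence of a direction.

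The genes whose levels ran most like those of the members over the 16 arrays were found among 24694 probes well above background on every array. DUSP6 ran most like DUSP5, with a Pearson r of 0.975, followed by GDF15 at 0.972 and TRIB1 at 0.971. DUSP5 ran most like NR4A1 (0.984), TRIB1 and BTG2 (0.979 for both). DUSP4 had ERRFI1 (0.977), TRIB1 (0.961) and RRAD (0.958) as neighbours, and DUSP1 had EDN1 (0.946), ZFP36 and NR1D1 (0.945 for both). All of these share the 4 groups, the runs and the normalization of the same arrays, and what each adds to the values was not tested. DUSP2 had PLEK2 (0.960), TMEM44 (0.959) and SIPA1 (0.951), and DUSP8 had ARMC7 (0.938), KIF3A (0.911) and RGC32 (0.904). DUSP14 had DDX39 (0.962), DLL3 (0.961) and CCDC95 (0.959). Before run means were removed, neither these genes nor those of DUSP1 were among the genes listed for DUSP5 or DUSP6. With 3 genes listed per member out of 24694 probes, lists that share none do not set members apart. Of the members, DUSP5 correlated with DUSP4 at 0.942 and with DUSP1 at 0.902, with DUSP2 at 0.699, with DUSP8 at 0.551 and with DUSP14 at 0.377. After the mean of each run was removed, these became 0.946, 0.931, 0.831, 0.721 and 0.577. With run means removed, NR4A1 (0.995) remained first for DUSP5, and MAFF (0.990) came first for DUSP6. EDN1, listed above for DUSP1, was then among the 3 genes of DUSP5 (0.988). BTG2, listed above for DUSP5, was then among the 3 genes of DUSP1 (0.958).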

How the data were processed

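Per the labels and the methods, RNA of 16 Caco-2 cultures in 4 groups of 4 was hybridised to Agilent one-colour arrays. The authors' deposited log2 values are median foreground intensities, quantile normalized over all spots without background correction in limma; an own quantile normalization of the deposited scanner intensities gave the same values to within 5.0e-09. Array medians were 153 to 410 for intensity and 48 to 65 for local background. Dim probes keep that background in their values, and what this does to their fold changes was not tested. Other deposited scanner columns (spot marks, well-above-background calls, processed signals) served for filters and alternatives. Control spots (1639 of 45015) and outlier-marked spots (0.256%) were left out, spots of a probe averaged, and probes with at least 3 unmarked arrays in every group kept (40982 of 41000).

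limma 3.58.1 in R 4.3.3 fitted 1 model of the 4 groups (12 residual degrees of freedom), with Benjamini-Hochberg adjustment over all probes; the period model added earlier or later runs. Samples were grouped by title. A gene in a list or class was represented by its brightest probe. Runs and slides were read from the deposited files. The genes, classes and lists were chosen with earlier results of these data known. Every probe of a member was named, list genes when called under PT-G or PT, and the 3 most correlated genes of each member well above background on all arrays. P-values measure the spread between 4 experiments of 1 cell line; 16 arrays limit the precision, and depth has no meaning beyond signal over background here. Samples with the same number in their titles deviated together for PT-G and MED-CTL (correlations 0.396 to 0.858) and for p31-43 and MED-CTL (0.263 to 0.706), and not in every pair for PT and MED-CTL (-0.0148 to 0.41). Arrays of the same run gave 0.626 to 0.858, 0.536 to 0.706 and -0.0148 to 0.619. MED-CTL replicates 1 and 2 were in runs 2 and 1, and whether the titles or the runs mark the experiments is not stated in the sources used here. Alternatives were another normalization, background handling, filters, fewer groups, blocks and leaving out each array. The fit was tested on simulated data with independent arrays and no runs or slides. That test therefore does not cover deviations shared within a run. Promoter windows and symbols came from RefSeq (GRCh38.p14); those of DUSP4 and DUSP5 are not shown here. The list of genes of the ERK arm is not reported here.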

Additional observations from a re-analysis of the deposited data

Results flagged for a closer look

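DUSP10 probe A_24_P182494 read 6.03 on the array of MED-CTL replicate 4, where the other 3 arrays of the group read 6.32 to 6.37. The gap to the nearest of the others was 0.832 of the range of the group, just over the critical value of Dixon's test for 4 samples. Of 48 combinations of probe and group examined this was the 1 that passed, and chance alone gives about 1 in 20. The probe was well above background on 1 of the 4 MED-CTL arrays, and its PT-G call was lost without this array (log2 fold change 0.32 in place of 0.40).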

How the results depend on the processing

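No member value that was called changed direction in any alternative. The number of member probes called at a nominal p under 0.01 was 6 under PT-G and 7 under PT, and ranged over 4 to 7 and 5 to 7 when each array was left out in turn. With the replicate number as a block it was 8 and 9, and 1 under p31-43 (DUSP10 probe A_24_P182494), where the unblocked fit gave 0. Blocking on run gave 9, 9 and 1 (the same probe), and blocking on slide 11, 10 and 1 (DUSP14). With the p31-43 arrays in place of MED-CTL, chosen after seeing the data, 4 member probes were called under PT-G and 4 under PT. A model of just the pair of groups at hand called 4 and 5, without DUSP8 and DUSP10 under PT-G. Between PT-G and PT, and between periods, 0 member probes were called in any alternative run. The difference between ERK-directed and JNK/p38-directed medians, 1.26 under PT-G and 0.94 under PT, was 0.73 and 0.39 with DUSP1, DUSP2 and DUSP4 counted as ERK-directed, and ranged over 1.07 to 1.41 and 0.74 to 1.09 without single arrays; under p31-43 it was -0.33, with a range of -0.55 to -0.18. Over all probes, 1404, 1491, 165 and 37 were called for PT-G, PT and p31-43 against MED-CTL and PT-G against PT, and the replicate block gave 3108, 3463, 431 and 92, the run block 3735, 4199, 567 and 132, and the slide block 4996, 4332, 1526 and 152. Such pairwise models gave 886, 1117, 80 and 12, median scaling 1040, 1091, 291 and 8, and the filter on dim probes 84 under p31-43 and 2 between PT-G and PT. Leaving out replicate 2, 3 or 4 of MED-CTL gave 86, 279 and 331 under p31-43, and the PT-G against PT count was 85 without PT replicate 1 and 63 without PT-G replicate 1. Median scaling shifted the median of all probes to -0.11 under PT and moved the share of higher calls under PT-G from 55.8% to 69.3%, and between PT-G and PT from 62.2% to 87.5% (34.1% on background-subtracted signals, which also gave 8.92% against 37.6% under p31-43). On median scaling DUSP10 probe A_24_P182494 had 0.34 under PT-G and lost its call, and on background-subtracted signals DUSP8 probe A_23_P390528 lost its PT call at 0.95. The causes were not tested. Signal over background limits DUSP10 above all.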
